A study of Mus musculus with 36 samples.

Results

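The metatarsals of the foot and the metacarpals of the hand, together called metapodials, were compared for open chromatin in cartilage of the developing mouse limb. Regions were counted as metatarsal-only when peaks of all 3 metatarsal lists (digits I, III and V) and of no metacarpal list covered them, and as metacarpal-only in the reverse case. Of 65543 regions obtained by merging the peaks of 12 lists, 465 were metatarsal-only (0.709% of all regions) and 232 were metacarpal-only (0.354%). Peaks were called in at least 1 metapodial list at 58365 regions.

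ATAC-seq maps accessible DNA by sequencing the fragments that a transposase releases from it. The tissue was E15.5 autopod cartilage, labelled as chondrocytes, of FVB/NJ embryos with no other allele or agent named. Left and right elements of 3 to 5 embryos of 1 litter (6 to 10 limbs) were pooled into each library, and each group of limb, element and digit had 3 libraries. The groups used were metatarsal and metacarpal digits I, III and V (18 of the 36 libraries of the series). The foot and hand phalanges of the same digits served as a readout whose calls did not choose the regions. The files held 1 peak list per group made from pooled libraries, so 6 of the 12 lists are metapodial and each list is 1 measurement with no error of its own. Means ± SD below are over 3 lists of different digits, so their spread holds digit as well as sampling error. Exact permutation tests of 3 lists against 3 cannot go below p = 0.1, so no difference here could pass 0.05, and results are given as values and as whether the lists of the groups overlap.

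Fore- and hindlimb share most of the genes that build cartilage and differ in a small set of transcription factors that mark limb identity. Pitx1, a homeobox gene, and Tbx4, a T-box gene, act in the hindlimb, Tbx5 acts in the forelimb, and posterior genes of the HoxC cluster are expressed more in the hindlimb. The HoxA and HoxD clusters pattern the distal parts of both limbs. Open chromatin marks promoters, which lie at gene starts, and enhancers, which can lie far from the genes they act on. A gene's accessible sequence is not its expression, and DNA outside the peaks of a list need not be closed, since weaker signal below its threshold is not listed.

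Promoters seldom separated the limbs. Of 21263 RefSeq promoter windows (GRCm38.p6, which has the coordinates of mm10, 250 bases before to 50 after a gene's start), 10 (0.0470%) were covered in all 3 metatarsal lists and no metacarpal list, 6 (0.0282%) the reverse, and 12782 (60.1%) in all 6. A window counted as covered or called in a list where its peaks lay over at least 50% of the window, so smaller overlaps were not counted. The first pair shown here is of the metatarsal kind, the second pair of the metacarpal kind, and the last is a start inside Tbx4 that serves as a contrast. Capitals mark matches on either strand to TAATCC (bicoid-class homeodomain), AGGTGTGA (T-box), CAATAAA (HOX9 to HOX13 group), TGTGGT (RUNX), ACAAAG or ATTGTT (SOX), or TGACTCA (AP-1).
Trim72 (chr7:128004128-128004427, plus strand): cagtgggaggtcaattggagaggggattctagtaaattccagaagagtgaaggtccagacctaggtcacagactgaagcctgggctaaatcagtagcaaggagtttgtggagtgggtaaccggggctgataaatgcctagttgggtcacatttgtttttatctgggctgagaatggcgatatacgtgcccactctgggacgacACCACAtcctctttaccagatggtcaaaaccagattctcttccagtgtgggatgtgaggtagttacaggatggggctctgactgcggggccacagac
Scn2b (chr9:45117626-45117925, plus strand): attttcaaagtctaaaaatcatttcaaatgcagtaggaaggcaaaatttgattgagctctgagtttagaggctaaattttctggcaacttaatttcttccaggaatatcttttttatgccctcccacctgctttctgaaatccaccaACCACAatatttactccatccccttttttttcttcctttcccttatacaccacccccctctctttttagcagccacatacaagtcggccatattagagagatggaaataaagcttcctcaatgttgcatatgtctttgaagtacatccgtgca
Depp1 (chr6:116650434-116650733, plus strand): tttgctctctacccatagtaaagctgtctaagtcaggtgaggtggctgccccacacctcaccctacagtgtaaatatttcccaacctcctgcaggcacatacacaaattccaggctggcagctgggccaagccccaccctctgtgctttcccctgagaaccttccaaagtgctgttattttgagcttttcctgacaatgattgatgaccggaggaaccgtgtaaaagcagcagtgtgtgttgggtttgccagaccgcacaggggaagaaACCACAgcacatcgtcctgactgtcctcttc
Sstr3 (chr15:78541357-78541656, minus strand): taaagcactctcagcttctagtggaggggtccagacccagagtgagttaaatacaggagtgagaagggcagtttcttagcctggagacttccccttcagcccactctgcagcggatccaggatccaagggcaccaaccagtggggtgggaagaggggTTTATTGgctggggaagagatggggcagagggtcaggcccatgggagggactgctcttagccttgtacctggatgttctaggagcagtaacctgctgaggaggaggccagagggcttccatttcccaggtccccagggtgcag
Tbx4 (chr11:85896515-85896814, plus strand): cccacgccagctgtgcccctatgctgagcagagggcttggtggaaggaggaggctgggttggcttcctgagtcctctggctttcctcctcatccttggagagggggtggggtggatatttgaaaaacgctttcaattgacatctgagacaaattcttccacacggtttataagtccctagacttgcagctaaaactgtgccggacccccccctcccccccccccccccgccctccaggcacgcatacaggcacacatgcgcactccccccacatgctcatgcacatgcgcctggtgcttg
Trim72 encodes a membrane repair protein of striated muscle, and its window held TGTGGT on the minus strand at bases 204 to 209 of the printed sequence. Scn2b encodes a sodium channel subunit, with TGTGGT on the minus strand at bases 148 to 153. Depp1 had the same motif on the minus strand at bases 270 to 275, and Sstr3, a somatostatin receptor gene, had CAATAAA on the minus strand at bases 158 to 164. No capitalised match lay in the Tbx4 window. The one-limb windows printed all held a match, which was not general. Those of Tmem270, Rasip1, Abca15, Pml and Prrt1 (metatarsal kind) held none. Likewise, those of Ngef, Neu2, Arhgap15 and Dusp13 (metacarpal kind) held none. TGTGGT occurs in 15.0% of all promoter windows, CAATAAA in 3.85%, ACAAAG in 16.8%, ATTGTT in 9.05%, TAATCC in 6.42%, TGACTCA in 4.66% and AGGTGTGA in 1.15%. GGAAA (NFAT), which occurs in 59.9%, was searched and not capitalised. ATTGTT can share bases with CAATAAA read on the other strand. The Trim72 window was called in all 6 phalanx lists and the Scn2b window in 3 foot and 2 hand phalanx lists, whereas the windows of Depp1 and Sstr3 were called in none. None of these 10 and 6 windows was called in all 3 phalanx lists of its own limb and in no phalanx list of the other. The Tbx4 window was called in 3 metatarsal, 2 metacarpal, 3 foot and 3 hand phalanx lists. On the plus strand, this window lies downstream of the lower-coordinate end of Tbx4 (85886367). At that end, a stretch given below was under peaks of all 3 metatarsal lists and no metacarpal list, so the window does not stand for it.

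The lists of the limbs were of similar length. The metatarsal lists held 46582 (digit I), 44292 (III) and 36700 peaks (V), and the metacarpal lists 36194, 53276 and 38250 peaks. The means were 42525 ± 5173 and 42573 ± 9326 peaks (SD over 3 lists, exact permutation p = 1, two-sided), so metacarpal III was the longest metapodial list and metacarpal I the shortest. Peaks covered 102.2 ± 17.5 Mb in metatarsal and 93.1 ± 17.2 Mb in metacarpal lists (exact permutation p = 0.6). The read depth per library is unknown, beyond a target of at least 40 M reads in the labels. Cartilage markers were open in all metapodial lists: with 10 kb flanks, Col2a1, the main cartilage collagen gene, had between 15.1 kb (metatarsal V) and 34.7 kb (metacarpal III) under peaks. Marker genes of muscle, endothelium, blood, epidermis, nerve and tendon also carried peaks, and their shares are given below beside the gene lists.

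Limb identity genes differed between the limbs at single loci. The difference was measured as the length of sequence under peaks in a gene and 10 kb on either side, a measure added after the data were seen, because wide peaks merged across differing stretches. Over 17383 genes with any such sequence, 9.23% had more in every metatarsal than in any metacarpal list and 1.08% less, and these shares are the background for the counts that follow. At Tbx4 (chromosome 11, 85886367 to 85916097), the metatarsal lists had 20.6, 16.7 and 17.5 kb (digits I, III and V) and the metacarpal lists 8.98, 6.01 and 4.05 kb. The foot phalanx lists had 20.5, 20.2 and 22.0 kb at Tbx4 and the hand phalanx lists 10.5, 10.8 and 9.25 kb. Every hindlimb list thus stood above every forelimb list, with differences of 11.9 kb in metapodials and 10.7 kb in phalanges (exact permutation p = 0.1 for each).

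At Pitx1 (chromosome 13, 55825044 to 55836190), 15.3, 13.5 and 12.79 kb were covered in the metatarsal lists and 7.71, 7.15 and 4.62 kb in the metacarpal lists. The phalanges showed the same order at Pitx1 with a smaller gap, at 14.9, 15.7 and 17.8 kb in the foot and 13.2, 9.02 and 10.9 kb in the hand. The groups did not overlap in either element (differences of 7.37 and 5.10 kb, exact permutation p = 0.1 for each). Tbx5 (chromosome 5, 119796514 to 119885220) went the other way, with 6.91, 2.72 and 2.85 kb in the metatarsal lists and 34.6, 20.5 and 13.9 kb in the metacarpal lists. The foot phalanx lists had 7.03, 11.7 and 12.6 kb at Tbx5 and the hand phalanx lists 35.8, 19.6 and 20.3 kb. Forelimb lists thus stood above all hindlimb lists at Tbx5. The difference was −18.8 kb in metapodials (metatarsal 4.16 ± 2.39 minus metacarpal 22.98 ± 10.6 kb) and −14.8 kb in phalanges (foot 10.5 ± 3.00 minus hand 25.2 ± 9.19 kb, exact permutation p = 0.1 for each).

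**Figure D1:**
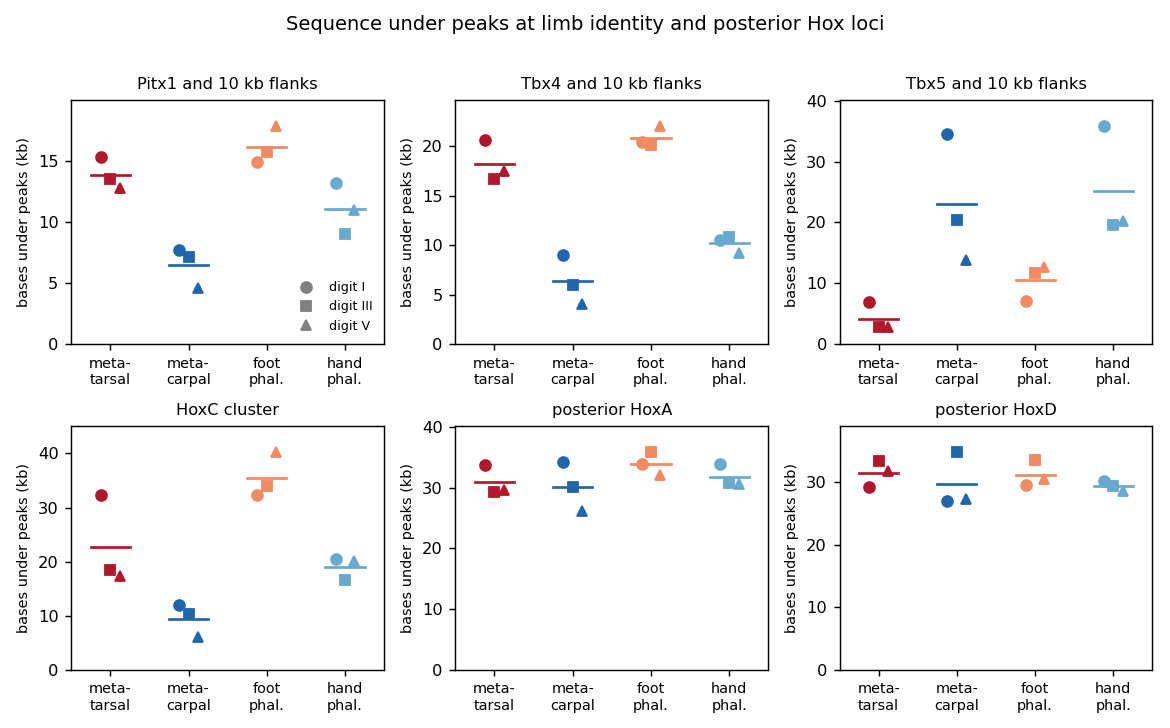
Length of sequence under peaks (kb, linear axis from 0) at 3 limb identity genes with 10 kb flanks, in the HoxC cluster and in the posterior parts of the HoxA and HoxD clusters. Each point is 1 peak list, its shape gives the digit and the horizontal bar is the mean of 3 lists. Within each element, hindlimb lists lie above forelimb lists at Pitx1, Tbx4 and HoxC and below them at Tbx5, and the metapodial groups overlap at HoxA and HoxD.

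The HoxC cluster, from Hoxc13 to Hoxc4 (chromosome 15, 102921131 to 103036856), followed Tbx4 and Pitx1. Peaks covered 32.3, 18.4 and 17.4 kb of it in the metatarsal lists, 11.98, 10.3 and 5.97 kb in the metacarpal lists, 32.3, 34.1 and 40.2 kb in the foot phalanx lists and 20.5, 16.6 and 20.2 kb in the hand phalanx lists. Neither element had overlapping groups (exact permutation p = 0.1 for each), and the metatarsal I list stood well above metatarsals III and V. The posterior part, Hoxc13 to Hoxc9, had 13.2 ± 4.95 kb in metatarsal and 4.35 ± 1.46 kb in metacarpal lists, and the anterior part, Hoxc8 to Hoxc4, had 8.91 ± 3.04 and 5.07 ± 1.73 kb. Among single genes with their flanks, which share peaks with their neighbours, Hoxc10 had 8.43, 3.52 and 4.30 kb against 3.25, 2.32 and 1.25 kb. Hoxc11 had 6.86, 3.91 and 5.68 kb against 1.29, 0.901 and 2.39 kb. Hoxc9 had 4.81 ± 2.39 against 1.37 ± 1.10 kb. Hoxc12 had 4.71, 1.123 and 1.095 kb against 0.612 kb in metacarpal I and no peak in metacarpals III and V.

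The clusters that pattern both limbs did not separate them. The posterior HoxA genes, Hoxa13 to Hoxa9, had 30.9 ± 2.43 kb under metatarsal and 30.1 ± 4.04 kb under metacarpal peaks (exact permutation p = 1). The posterior HoxD genes, Hoxd13 to Hoxd8, had 31.5 ± 2.13 and 29.7 ± 4.41 kb (exact permutation p = 0.6). Hoxd13 alone had 19.6 ± 0.718 and 19.3 ± 1.73 kb, a direction that turned with scaling to each list's total, and Hoxa13 had 11.6 ± 4.25 and 9.63 ± 2.31 kb, which turned with 500-bp windows round summits. Sox9, the master regulator of chondrocytes, had 10.3 ± 2.11 and 7.81 ± 1.302 kb in metapodials (exact permutation p = 0.3) and 11.8 ± 1.32 against 8.53 ± 1.71 kb in foot and hand phalanges. Col2a1 leaned to the forelimb, with 23.7 ± 7.57 against 30.7 ± 5.81 kb in metapodials (exact permutation p = 0.3) and 21.7 ± 4.23 against 30.1 ± 3.604 kb in phalanges, but turned with summit windows. The metapodial lists overlapped at both genes, whereas the foot and hand phalanx lists did not (exact permutation p = 0.1 for each). At equal list length the metapodial lists were apart at Col2a1 as well (20.3, 16.6 and 15.1 against 24.04, 33.7 and 33.5 kb, exact permutation p = 0.1).

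Of the 15 limb identity genes, 8 had more covered sequence in every metatarsal list (Pitx1, Tbx4, Hoxc5, Hoxc6, Hoxc9, Hoxc10, Hoxc11 and Hoxc12), 1 had less (Tbx5) and the others overlapped, among them the limb T-box genes Tbx2 and Tbx3. The 6 HoxC genes lie in 1 cluster and are not independent of each other. Scaled to each list's total covered length, which moved the background to 4.40% and 3.68% of genes, the counts were again 8 and 1, with Hoxc4 in place of Hoxc10. The HoxC genes were less stable than Pitx1 and Tbx4. The counts were 8 and 1 at equal list length, 11 and 1 with 50 kb flanks and 5 and 1 over gene bodies alone. With the more significant 50% of each list they were 2 and 1, and no HoxC gene was left. The background in these settings was 11.4%, 7.88%, 8.09% and 9.52% of genes towards metatarsals and 1.75%, 0.691%, 1.48% and 0.961% towards metacarpals. With 500-bp summit windows the counts were 4 and 0, against a background of 0.664% and 0.555%. Pitx1 and Tbx4 were higher in every metatarsal list in all 7 settings tried, and Tbx5 was lower in 6 of 7 and overlapped with 500-bp summit windows. Some margins were narrow with the more significant 50%. Tbx4 had 2.242 kb in metatarsal III against 2.071 kb in metacarpal I, and Tbx5 2.849 kb in metatarsal V against 2.887 kb in metacarpal V. In phalanges, the Pitx1 foot minus hand difference was 0 kb with summit windows. The Tbx5 phalanx lists overlapped with the more significant 50% (4.88 kb in foot V, 2.69 kb in hand V).

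**Figure D2:**
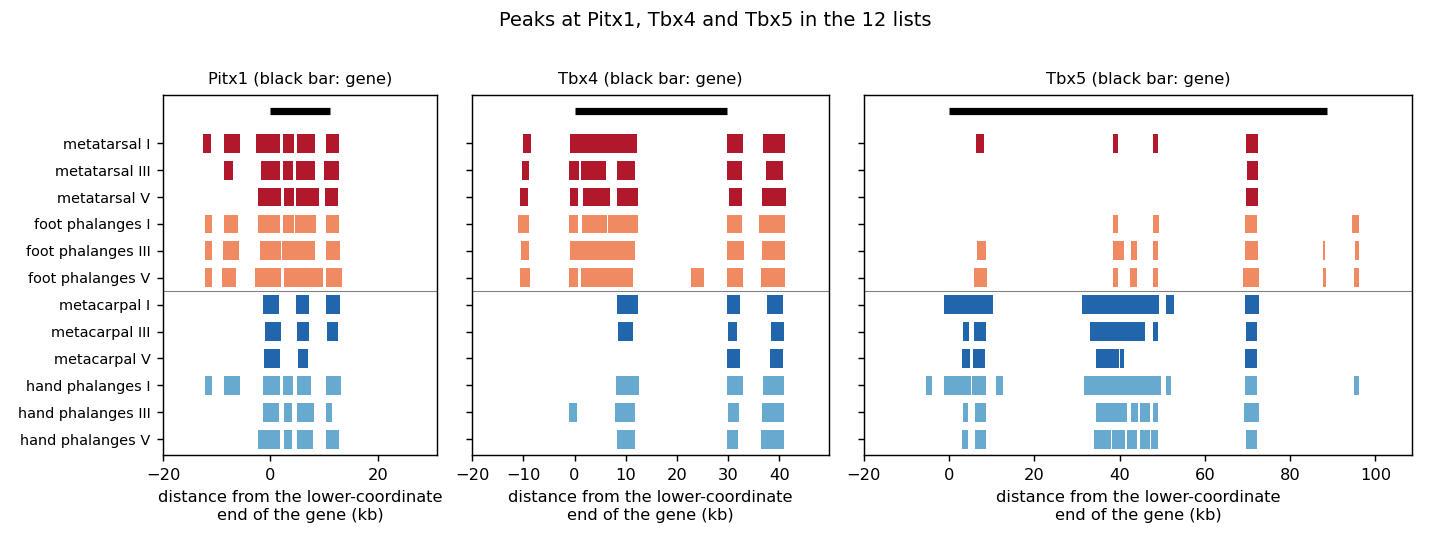
Extent of each peak (coloured bars) along Pitx1, Tbx4 and Tbx5, against the distance in kb from the lower-coordinate end of the gene, with 1 row per peak list and the gene as a black bar. Hindlimb rows (red) carry peaks over the lower-coordinate part of Tbx4 that most forelimb rows (blue) lack, and forelimb rows carry broad peaks inside Tbx5 where hindlimb rows have few.

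Within these loci the differing sequence was local. In Tbx4, peaks of all 3 metatarsal and no metacarpal list covered a 1495-bp stretch (85885525 to 85887019), which reaches across the lower-coordinate end of the gene and was called in 3 foot and 1 hand phalanx lists. A longer Tbx4 stretch of 4545 bp (85887936 to 85892480) was of the same kind and was called in 3 foot and 0 hand phalanx lists. In Pitx1 there were such stretches of 1614 bp (55827614 to 55829227) and 969 bp (55832330 to 55833298), called in 3 foot phalanx lists each and in 3 and 2 hand phalanx lists. The metacarpal counterpart in Tbx5 was a 3929-bp stretch (119831088 to 119835016), about 36.5 kb from a gene end, called in all hand and no foot phalanx lists. A further 1297-bp stretch in Tbx5 (119799898 to 119801194) was likewise called in 3 hand and 0 foot phalanx lists, and an 888-bp stretch (119836678 to 119837565) in 3 and 1. Peaks at the higher-coordinate end of Tbx4 were present in lists of both limbs. Counted as merged regions assigned to the nearest gene end, the 3 genes did not separate. Pitx1 had 4, 4 and 3 against 2, 3 and 1 called regions, and Tbx4 had 5 in each metatarsal list against 5, 4 and 3. Tbx5 had 7, 3 and 3 against 8, 6 and 5. Counting regions within the gene and 10 kb flanks alone, Tbx4 had 4 in each metatarsal list against 3, 3 and 2, without overlap, whereas Pitx1 and Tbx5 overlapped.

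The calls in the phalanx lists were not used by the rule, although phalanx peaks helped to set the bounds of the merged regions. With regions merged from the 6 metapodial lists alone, 477 and 233 were chosen, and the foot minus hand differences were 32.7 and −16.2 percentage points. Metatarsal-only regions were called in 62.4%, 76.3% and 68.2% of cases in the foot phalanx lists of digits I, III and V, and in 39.8%, 39.6% and 29.7% in the hand phalanx lists. All foot lists stood above all hand lists, with means of 69.0 ± 7.02% and 36.3 ± 5.77% (SD, n = 3 lists each), a difference of 32.6 percentage points (exact permutation p = 0.1, the smallest possible). Metacarpal-only regions were called in 7.8%, 33.6% and 4.3% of cases in the foot lists and in 37.5%, 44.8% and 11.2% in the hand lists. Here the groups overlapped, and the difference of −15.9 percentage points (foot 15.2 ± 16.0% minus hand 31.2 ± 17.7%) did not exceed the spread between lists (exact permutation p = 0.2). At equal list length it was −20.3 points and the lists were apart (exact permutation p = 0.1). Within digits I, III and V the foot minus hand difference was −29.7, −11.2 and −6.90 points for metacarpal-only and 22.6, 36.8 and 38.5 points for metatarsal-only regions, so each kind had 1 sign in all 3 digits. Paired by digit, an exact sign-flip permutation test gave p = 0.25 for each, the smallest that 3 pairs allow. The digit III phalanx lists called more metacarpal-only regions than the other lists of their limb, in the foot as in the hand. They were also the longest phalanx lists of their limb (47375 peaks in the foot and 44289 in the hand). Of all regions they likewise called the largest share, 68.5% in the foot and 63.1% in the hand.

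Other regions called in 3 of the 6 metapodial lists numbered 3957 and serve as the comparison of equal frequency. They were called in 40.9% of cases in foot and 36.6% in hand phalanx lists (difference 4.30 points, exact permutation p = 0.6), and all regions together differed by 3.27 points (exact permutation p = 0.6 as well). The share of metatarsal-only less that of metacarpal-only regions, both taken in the same list, was 54.6, 42.7 and 63.9 points in the foot lists and 2.28, −5.26 and 18.5 points in the hand lists. These groups did not overlap, with a difference of 48.6 points (53.7 ± 10.6 against 5.17 ± 12.1, exact permutation p = 0.1). The sign of each of the 3 differences was kept in every alternative and with any list left out.

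**Figure D3:**
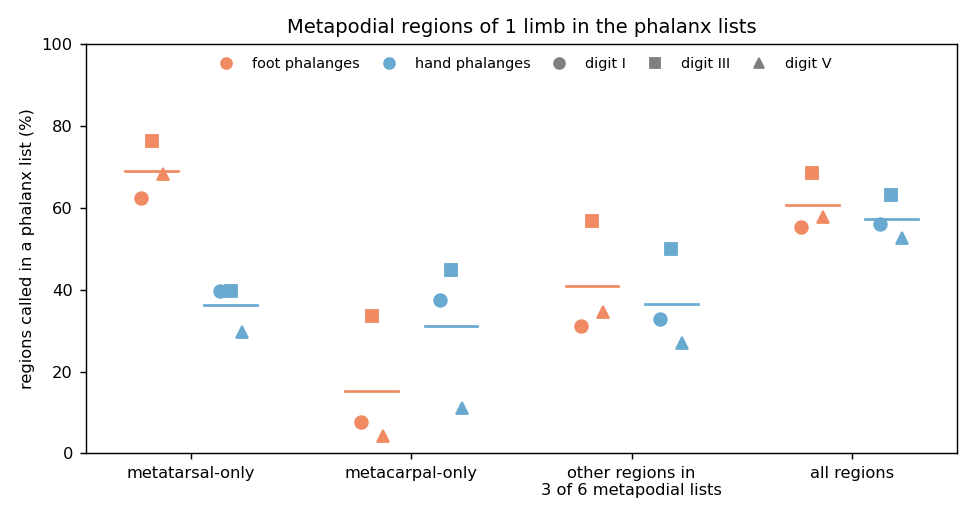
Share of regions (%) called in each foot and hand phalanx list, for metatarsal-only, metacarpal-only, other regions in 3 of 6 metapodial lists and all regions. Each point is 1 list with its shape giving the digit, and bars are means of 3 lists. Foot and hand points are apart for metatarsal-only regions (69.0% against 36.3%) and overlap in the other 3 sets.

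Region by region, 281 of the 465 metatarsal-only regions (60.4%) were called in more foot than hand phalanx lists, 21 (4.52%) in more hand lists and 163 in equal numbers. Of the 232 metacarpal-only regions, 106 (45.7%) were called in more hand lists, 20 (8.62%) in more foot lists and 106 in equal numbers. Among the other regions in 3 of 6 metapodial lists, 30.3% leaned to the foot and 22.7% to the hand. Of the metatarsal-only regions, 50 (10.8%) carried the full foot pattern of 3 foot and 0 hand lists, and none carried the reverse. This foot pattern was shown by 1.35% of all regions and 1.84% of the comparison regions. The full hand pattern was carried by 4 metacarpal-only regions (1.72%), against 0.163% of all regions and 0.278% of the comparison regions. A further 73 metatarsal-only regions were called in all 6 phalanx lists and 63 in none, whereas of the metacarpal-only regions 4 were called in all and 78 in none.

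**Figure D4:**
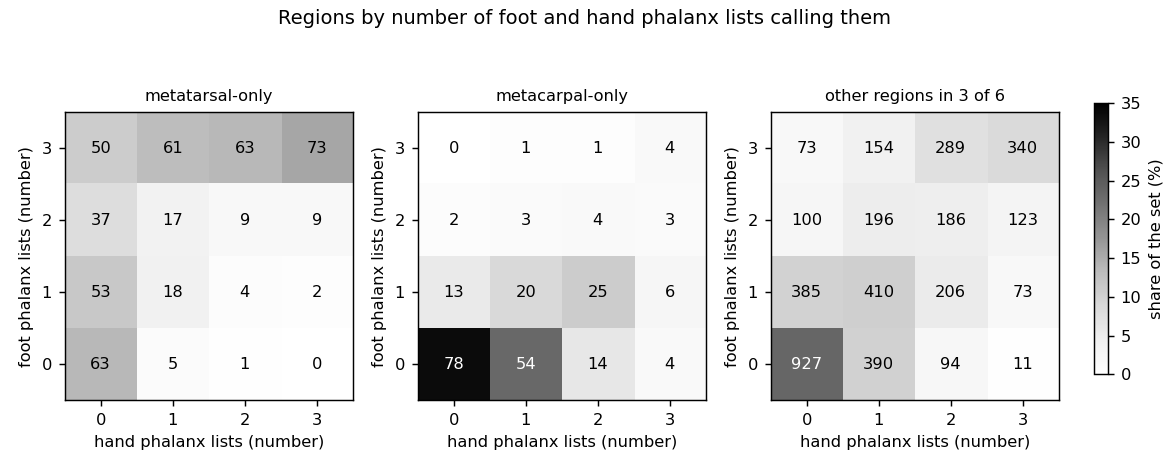
Number of regions by how many foot phalanx lists (vertical axis) and hand phalanx lists (horizontal axis) called them, with shading as the share of the set (%). Metatarsal-only regions fill the upper rows, with 50 in 3 foot and 0 hand lists, and metacarpal-only regions the lower rows, with 78 in no phalanx list.

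The regions lay away from gene ends. Their centre was within 1 kb of the nearest end of a protein-coding gene in 10 metatarsal-only (2.15%) and 5 metacarpal-only cases (2.16%), against 3.82% of the comparison regions and 16.4% of all regions. The median distance was 52.8 kb for metatarsal-only, 40.6 kb for metacarpal-only, 31.4 kb for comparison and 20.6 kb for all regions. Metatarsal-only regions lay inside genes in 40.9% and beyond 100 kb in 34.0% of cases, and metacarpal-only regions in 52.2% and 25.4%. Of the comparison regions 51.0% lay inside genes and 21.6% beyond 100 kb, and of all regions 55.3% and 18.4%. The metacarpal-only share inside genes was thus near both. Median widths were 2188 and 1856 bp, against 1973 bp for comparison and 2360 bp for all regions. No metatarsal-only region and 7 metacarpal-only regions (3.02%) were on chromosome X, which held 2.29% of all regions. The X share of called regions was 2.18%, 2.29% and 2.32% in the metatarsal lists and 2.39%, 2.48% and 2.49% in the metacarpal lists, and the sex of the pooled embryos is not given in the labels.

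Most of these regions were weak peaks. By the authors' fold enrichment, the median metatarsal-only region had a rank percentile (0 for the weakest peak of a list) of 27.9, 14.7 and 18.6 in metatarsals I, III and V, with folds of 6.80, 6.38 and 6.91. The median metacarpal-only region had 13.3, 33.8 and 18.6 in metacarpals I, III and V, with folds of 8.40, 7.21 and 5.87. When each list was limited to its more significant 50%, the rule gave 105 and 54 regions, and none of them was among the 465 and 232. The nearest peak of the other limb was a median of 11.9 kb away from metatarsal-only and 8.45 kb from metacarpal-only regions. Just outside the rule, 1461 regions had 3 metatarsal lists and 1 metacarpal list, which was metacarpal III in 1298 cases, and 1196 had 2 metatarsal and no metacarpal lists. For the reverse kind, 675 regions had 3 metacarpal lists and 1 metatarsal list, and 1439 had 2 metacarpal and no metatarsal lists, with metacarpal I missing in 931. Without the metacarpal III list the rule gave 1763 metatarsal-only regions, and without metacarpal I it gave 1163 metacarpal-only regions.

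Few of the regions lay nearest to genes of the limb patterning and cartilage lists. The metatarsal-only region nearest Tbx4 (chromosome 11, 85875237 to 85877779) lies 9.9 kb outside the gene, with authors' folds of 6.07, 5.78 and 6.17 in the metatarsal and 6.70, 6.99 and 6.06 in the foot phalanx lists. No forelimb list called it, and the nearest metacarpal peak was 16.8 kb away. Among anterior-posterior and distal patterning genes, 4 of 307 regions (1.303%) were metatarsal-only and 0 metacarpal-only, against 0.708% and 0.352% of all assigned regions. They included 1 each near Meis1, a homeobox gene, and Gli3, a transcription factor gene of Hedgehog signalling. The Meis1 region (chromosome 11, 19090827 to 19092232), 71.9 kb from the gene, had folds of 9.67, 6.64 and 7.89 and was called in 2 foot and 0 hand lists. Gli3 had its region 137.5 kb away (chromosome 13, 15324985 to 15327439), with 8.31, 5.98 and 7.98.

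Joint genes had regions of both kinds, 2 of each among 153 regions (1.31%). Of all assigned regions, 0.708% were metatarsal-only and 0.352% metacarpal-only. Nfatc1, a transcription factor of articular progenitors, had a metatarsal-only region 11.6 kb outside the gene (chromosome 18, 80593243 to 80596018; folds 6.07, 5.91 and 8.63) that was called in all foot and no hand phalanx lists. Sfrp2, which encodes a secreted Wnt modulator, had 1 of the same kind 194.9 kb away. Creb5, a regulator of articular lubricin, had a metacarpal-only region inside the gene (chromosome 6, 53658068 to 53659901; folds 7.85, 6.08 and 5.16), and Dcx, a microtubule protein gene, had 1 at 60.9 kb on chromosome X. The Creb5 region was called in no phalanx list and the Dcx region in 2 hand and 0 foot lists.

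Of the 359 regions at growth plate signalling genes, 4 were metacarpal-only and 1 metatarsal-only, and of the 242 at chondrocyte genes 3 and 1, against 0.352% and 0.708% of all assigned regions. By covered sequence the signalling list had 4 genes higher in metatarsals and 3 in metacarpals. The metacarpal-only regions of the signalling list lay inside Bmpr1b, a BMP receptor gene needed for digit cartilage, Ror2, a Wnt5a receptor gene, Bmp5, a BMP ligand gene, and the glypican gene Gpc6. The Bmpr1b region (chromosome 3, 141906109 to 141907234) had folds of 10.05, 8.75 and 5.87 in metacarpals I, III and V and was called in no phalanx list. The Bmp5 region (chromosome 9, 75831655 to 75833577) had 7.85, 5.98 and 5.43 and was called in 2 foot and 3 hand lists. Bmp2, another BMP ligand gene, had the metatarsal-only region, 185.6 kb away. Sox9 had 1 region of each kind: the metatarsal-only one lay 238.4 kb from the gene (chromosome 11, 112543293 to 112544251; folds 8.06, 7.37 and 6.66; 2 foot and 0 hand lists) and the metacarpal-only one 26.8 kb (112754612 to 112756196; folds 8.87, 5.34 and 5.08; no phalanx list).

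The remaining list genes were few. Foxa2, a forkhead gene of hypertrophic chondrocytes, had 1 region of each kind. Kera and Eya1 of the tendon list and Myog and Pax3 of the muscle list had 1 metatarsal-only region each, among 67 and 44 regions of those lists. These were 2.99% of the tendon and 4.55% of the muscle list regions, above the 0.708% of all assigned regions. Neither list had a metacarpal-only region. The lists of posterior HoxA and HoxD, perichondrium and osteoblast, endothelial, blood, epidermal and nerve genes had none of either kind.

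The strongest regions were ranked by their worst rank over 3 lists. In metatarsals the first was 402.3 kb from Cbln4 (chromosome 2, 171632488 to 171635535), with folds of 13.4, 9.50 and 12.9, and was called in all 6 phalanx lists. Jag1, a Notch ligand gene, had a region 131.4 kb away (folds 8.36, 8.70 and 8.88) that all 6 phalanx lists also called. Axin2, a feedback inhibitor of Wnt signalling, had 1 at 54.9 kb (chromosome 11, 109005025 to 109006371; folds 8.06, 8.43 and 10.5), called in 3 foot and 1 hand lists. The Fat3 region, 786.6 kb away, was called in 1 foot and no hand list. The other 4 by this rule lay nearest Gm3985, Scn10a, Clec14a and Usp24. Those of Gm3985, Clec14a and Usp24 were called in all 6 phalanx lists, and that of Scn10a in 3 foot and 1 hand lists. In metacarpals the first lay 0.325 kb outside Adgrg6, an adhesion receptor gene (chromosome 10, 14401420 to 14403096), with folds of 13.1, 8.70 and 7.53, and was called in no phalanx list. Ptpn21, a phosphatase gene, held the second (folds 15.9, 12.1 and 7.26; 1 hand and 0 foot lists). Slc35f1, Nmbr, Faxc and Daam1 had 1 each that was called in 1 or 2 hand and no foot phalanx lists. The others, nearest Galc (chromosome 12, 98143757 to 98145917) and Trps1, were each called in 1 foot and 2 hand lists.

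Some regions carried the full limb pattern in both elements. Among the 50 metatarsal-only ones, those of the highest rank lay nearest Meioc, Spata16, Msrb3, Slc4a9, Adamts17, Rybp, Dicer1 and Frmd4a. The Meioc region (chromosome 11, 102647129 to 102649257) had folds of 9.28, 8.30 and 8.39 in metatarsals and 7.40, 5.85 and 8.31 in foot phalanges. Rybp, a Polycomb component gene, had its region 202.5 kb away, with 9.18, 8.30 and 7.24 in metatarsals and 10.4, 8.64 and 7.63 in foot phalanges. The region 7.4 kb from Dicer1, the gene of the microRNA-processing enzyme, had 8.21, 6.91 and 8.55, and 7.67, 7.84 and 6.34. Adamts17, a secreted metalloprotease gene linked to short stature, had 2 metatarsal-only regions with this pattern. The 4 metacarpal-only counterparts lay nearest Mapkapk3, Pou4f3, Slc39a11 and Galc. The Galc region (chromosome 12, 97465268 to 97466756), 736.3 kb from the gene, had folds of 9.97, 7.79 and 7.09 in metacarpals and 6.27, 10.3 and 6.39 in hand phalanges.

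Several genes collected more than 1 region. The 465 metatarsal-only regions fell to 434 genes, of which 27 had 2 or more, and the 232 metacarpal-only regions to 221 genes, of which 8 had 2 or more. Hlx, a homeobox gene, had the most, with 4 metatarsal-only regions over 347 kb of chromosome 1 (184402468 to 184749642). Of the 4, the phalanx lists called 1 in 2 foot and 1 hand lists, 1 in 1 foot and 3 hand lists, 1 in all 6 and 1 in none. Sema3a, which encodes an axon guidance signal, had the most metacarpal-only regions, 3 over 176 kb of chromosome 5 (13374317 to 13550182), all inside the gene. Of the Sema3a regions, 1 was called in 1 foot and 1 hand phalanx list and the others in none. Regions of both kinds fell to 17 genes, including Sox9, Foxa2 and Galc.

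Counted as called regions per gene, 99 of 16342 genes (0.606%) had more in every metatarsal than in any metacarpal list and 66 (0.404%) fewer. Of the list genes, 1 was of the first kind and 4 of the second. Trps1, a transcriptional repressor gene of the growth plate whose mutation in humans causes a syndrome with short fingers, had 18, 21 and 17 called regions in metatarsals and 22, 31 and 24 in metacarpals. Its 43 regions span 1395 kb of chromosome 15, and 19 of them were called in more metacarpal lists and 4 in more metatarsal lists. Both of its metacarpal-only regions lie outside the gene, at 199.0 kb (50454987 to 50456436; folds 11.3, 7.37 and 7.44) and 102.5 kb (50992399 to 50993856; folds 10.6, 7.05 and 5.51). Gpc3, a glypican gene on chromosome X that limits body growth, had 3 in each metatarsal list and 5, 8 and 4 in metacarpals.

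Bmp5 had 3, 3 and 2 against 4, 5 and 4, and Dcx 3, 3 and 2 against 4 in each metacarpal list. Six2, a homeobox gene of limb tendons, was the list gene higher in metatarsals, with 8 in each list against 7, 7 and 6. At equal list length Bmp5 and Six2 overlapped, and by sequence under peaks with 10 kb flanks Gpc3, Bmp5 and Six2 kept their order without overlap, whereas Trps1 (18.7, 25.9 and 19.4 against 32.4, 25.4 and 24.7 kb) and Dcx overlapped. Counting regions within the gene and 10 kb flanks alone, Trps1, Dcx and Six2 overlapped. Gpc3, for example, had 7.74, 7.14 and 6.87 kb in metatarsals and 9.79, 11.2 and 7.89 kb in metacarpals.

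Outside the lists, Hlx had 17, 14 and 14 called regions in metatarsals and 7, 12 and 7 in metacarpals. Adamts17 had 11, 10 and 10 against 7, 9 and 5, and Axin2 10, 8 and 8 against 6, 7 and 5. Cdk15, Slco2a1 and Bdh1 completed the 6 largest differences towards the metatarsals. In the other direction Gsdmc had 8, 8 and 4 against 10, 16 and 9, Etv1, an ETS transcription factor gene, 8, 7 and 7 against 10, 15 and 10, and Arhgap32 5, 5 and 4 against 7, 12 and 7. Camsap2, Trmt9b and Phactr2 completed that set. The metacarpal III list held the highest count at each of these 6 genes. At equal list length Slco2a1, Bdh1 and Trmt9b overlapped. Within the gene and 10 kb flanks alone, Hlx (3, 2 and 2 against 2, 3 and 1 regions), Adamts17, Axin2, Bdh1, Etv1 and Trmt9b overlapped.

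**Figure D5:**
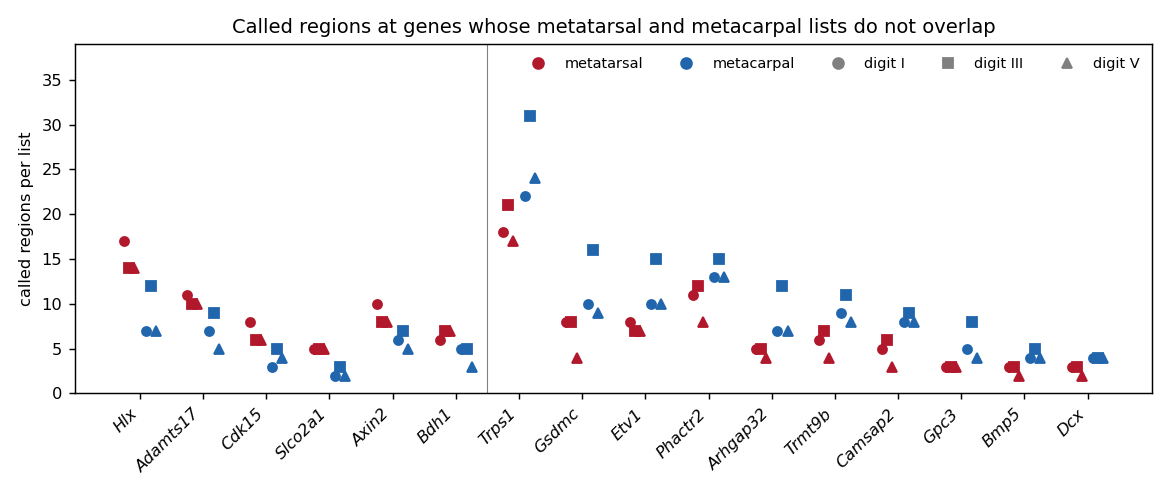
Number of called regions per list at genes whose metatarsal (red) and metacarpal (blue) lists do not overlap, with marker shapes for digits. Genes left of the line are higher in metatarsals (Hlx 17, 14 and 14 against 7, 12 and 7) and genes right of it in metacarpals (Trps1 18, 21 and 17 against 22, 31 and 24).

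Genes of resting and proliferating chondrocytes took 32.5, 33.5 and 30.1 of 10000 called regions in the metatarsal lists and 38.9, 34.5 and 36.1 in the metacarpal lists (32.0 ± 1.74 against 36.5 ± 2.22, exact permutation p = 0.1). Without Trps1 the groups overlapped (27.4 ± 1.90 against 30.1 ± 2.15, exact permutation p = 0.3). In the phalanges the list had 29.2, 34.7 and 30.7 in the foot and 35.1, 31.4 and 29.9 in the hand, which overlap. Tendon genes took 10.5 to 10.99 of 10000 called regions in metatarsal and 8.12 to 9.36 in metacarpal lists, with 11 of 12 genes having a region. The ranges overlapped for skeletal muscle (5.21 to 6.78 against 4.68 to 5.59, 14 of 15 genes), endothelial (12.4 to 12.6 against 12.6 to 12.9, 13 of 13), blood (8.97 to 11.3 against 7.28 to 10.8, 8 of 10), epidermal (5.21 to 5.65 against 4.79 to 5.85, 8 of 10) and nerve genes (2.31 to 3.11 against 2.80 to 3.08, 8 of 8). Myod1, which defines muscle precursors, had 2.303, 3.04 and 2.47 kb under metatarsal peaks and 0, 1.76 and 0 kb under metacarpal peaks. It was the only 1 of 14 muscle genes whose lists were apart, and by mean 8 of the 14 were higher in metatarsals and 6 in metacarpals. The part of muscle or tendon cells in the other differences was not tested, and in bulk tissue fewer cells of a type cannot be told apart from less open chromatin per cell.

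By sequence under peaks, 14 of the 189 list genes outside the limb identity list (7.41%) were higher in every metatarsal list. This share was below the background of 9.23%. In every metacarpal list 6 (3.17%) were higher, against 1.08%. Scaling to each list's total covered length moved the background to 4.40% and 3.68%, and these list genes were not counted under that scaling. Towards the metatarsals the genes included Meis1, Lmx1b and Sall1 of the patterning list, Fgf18, Nog, Bmp7 and Smad3 of the signalling list, Six2 of the tendon list, and Cnmd, Alpl, Myod1, Tal1 and Erbb3 of other lists. Lmx1b, which sets dorsal limb identity, had 45.5, 31.2 and 28.9 kb against 25.03, 21.9 and 13.8 kb. Cnmd, which encodes the cartilage angiogenesis inhibitor chondromodulin, had 9.85, 5.77 and 6.45 kb against 4.69, 5.73 and 3.84 kb, and, with Six2, had foot and hand phalanx lists that were also apart in the same direction. Towards the metacarpals they were Npr2, Bmp5 and Gpc3 of the signalling list, Chad, Spp1 and S100b. Npr2, the receptor gene for C-type natriuretic peptide in the growth plate, had 8.37, 7.19 and 6.05 kb against 8.49, 9.42 and 10.3 kb. Chad, the cartilage matrix gene chondroadherin, had 4.27, 4.03 and 4.002 kb against 4.91, 5.54 and 4.74 kb, with hand phalanges above foot phalanges as well.

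Stretches of at least 500 bp that peaks of all metatarsal and no metacarpal lists covered, inside wider regions or not, numbered 847, of which 400 lay outside the 465 regions. The reverse kind numbered 311, of which 95 lay outside the 232 regions. In the phalanx lists the 400 stretches were called in 61.8% of cases in the foot and 45.2% in the hand (exact permutation p = 0.2), and the 95 in 19.6% and 31.9% (exact permutation p = 0.2). Both differences had the direction of the regions themselves, at 16.7 and −12.3 percentage points (foot minus hand).

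Metapodials of the same digit shared most of their open chromatin between the limbs. The Jaccard index, the number of regions called in both lists over those called in either, was 0.687 for digit I, 0.745 for digit III and 0.719 for digit V. Between digits it was 0.728 to 0.762 within the metatarsals and 0.639 to 0.729 within the metacarpals. No same-digit pair across limbs thus fell below the range of metacarpals among themselves, but the digit I and digit V pairs fell below that of the metatarsals. Pairs of different digits across limbs ran from 0.632 (metatarsal V with metacarpal III) to 0.725 (metatarsal III with metacarpal V). Metacarpals I and V, at 0.729, were more alike than the digit I and digit V pairs across limbs. The lower metacarpal values, 0.639 and 0.672, both involved metacarpal III, the longest metapodial list. Regions called in all 6 metapodial lists numbered 26726 (40.8% of all regions). In digit I, 12334 regions were called in the metatarsal alone and 2243 in the metacarpal alone, in digit III 2577 and 10836, and in digit V 5177 and 6332, following the lengths of the lists.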

How the data were processed

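ATAC-seq peak lists of 12 groups were used, 1 list per group of 3 libraries. Each peak carries values the authors deposited, namely a summit position, a −log10 of its p-value, its fold over background as a ratio, and a score. The peak names in the files say that peaks were called on pooled libraries, and the file names state an irreproducible discovery rate selection. Per the submitters' processing notes, the build was mm10 and the tools were MACS3, Picard 2.9.0 and Bowtie2 2.3.4.1, without roles or settings, and a read shift for the transposase is not stated there. The deposited folds describe and rank peaks within a list only. Replicates could not be compared and read depth is unknown, because no counts per library were analysed here.

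Peaks of the 12 lists sharing at least 1 bp were merged into regions with Python 3.11.15, numpy 2.4.6 and pandas 2.3.3. Regions went to the closest gene end among protein-coding genes, at most 1 Mb off, in a RefSeq table (GRCm38.p6) without strand or exons, where transcription start sites had been planned. A motif search in regions was planned and not run, and motifs were searched in RefSeq promoter windows alone. The regions named were the 8 highest of each kind by worst rank, all at genes of the 14 lists, up to 8 with the full pattern in phalanges, and those at genes with 2 or more, of which examples are given; some results under this rule are not reported here. Genes named were fixed landmarks, list genes whose lists did not overlap, and the 6 largest differences outside the lists in each direction. The rule, the lists and the regions compared were chosen with earlier results of these data known. Tests were two-sided exact permutations over lists, and the p-values measure the spread between lists, which differ in digit. The merging and the rule were tested on simulated lists. Alternatives were a cover of 50% per region, lists cut to their more significant 50%, equal length (36194 peaks), 500-bp summit windows, 2 of 3 lists, and each list left out. Sequence under peaks and its settings were added after the data were seen.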

Additional observations from a re-analysis of the deposited data

Results flagged for a closer look

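S100b, a marker of Schwann cells that cartilage also expresses, had less sequence under peaks in metatarsals than in metacarpals, while foot phalanges had more than hand phalanges. With 10 kb flanks, the metatarsal lists had 1.497, 3.19 and 2.99 kb (digits I, III and V) and the metacarpal lists 4.32, 5.83 and 4.84 kb, a difference of −2.44 kb. The foot phalanx lists had 1.67, 2.91 and 1.39 kb and the hand phalanx lists 1.32, 1.18 and 1.28 kb, a difference of 0.73 kb. No list overlapped in either comparison, and the difference between the 2 effects was not tested.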

How the results depend on the processing

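The number of one-limb regions depended on the setting, and the limb difference in the phalanges kept its sign. Metatarsal-only regions numbered 465, and 806 with peaks covering 50% of a region, 105 with the more significant 50% of each list, 1661 in 2 of 3 lists and 847 as stretches. Metacarpal-only regions numbered 232, and 54 with the more significant 50%, 401 at equal list length and 1671 in 2 of 3 lists. Leaving out each list gave 531 to 1763 and 243 to 1163. At equal length 123 of the 465 regions (26.5%) and 111 of the 232 (47.8%) were again chosen. The foot minus hand share ranged from 22.2 to 36.2 points for metatarsal-only and from −20.3 to −7.98 for metacarpal-only regions over 8 settings, and from 20.2 to 35.9 and −25.9 to −8.57 with each of the 12 lists left out. The list length difference turned to 9.07 Mb by covered bases, and ranged from −3238 to 5303 peaks with a list left out. Genes with more called regions in all metatarsal or all metacarpal lists numbered 252 and 180 at equal length, against 99 and 66. Covered sequence turned at Hoxa13 (−0.12 kb with summit windows, −0.52 to 3.24 kb with a list left out), Col2a1 (0.52 kb with summit windows) and Hoxd13 (−1.30 kb per list total, −0.23 to 1.34 kb with a list left out), and the causes were not tested. No paired analysis was possible because each list pools the libraries of its group and carries no replicate number. Pairing lists by digit instead, chosen after seeing the data, kept the values and gave an exact permutation p = 0.25 for the 3 phalanx differences. Depth per library is unknown, so a region missing from a list may lie below its threshold.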
